A study of Mus musculus with 8 samples.

Results

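The comparison set mouse induced pluripotent stem cells (iPSC) against neural stem cells (NSC) and used 4 of the 8 samples of the study, which were 1 RNA-seq and 1 m6A-seq library of each cell type. Both cultures came from the C57BL/6 strain. The iPSC were at passage 22 in DMEM with 20% serum replacement and 1000 units/ml of leukemia inhibitory factor (LIF). The NSC were at passage 16, came from E12.5 fetal brain, and grew in neurobasal and DMEM/F12 media with N2 and B27 supplements, insulin at 10 ug/ml, and the growth factors EGF and bFGF, each at 10 ng/ml. The other 4 samples were embryonic stem cells (ESC, passage 14, grown as the iPSC were) and testicular Sertoli cells (SC, passage 2), and their values are given here only as a frame. Members were the lines of the deposited transcript table. Of 19776 transcript rows, 10924 (10575 of them coding) reached 1 FPKM in both libraries and entered the comparison of m6A calls. For expression, 15359 genes were measured and 12280 of them reached 1 FPKM in at least 1 of the libraries. With 1 library per assay on each side, none of the differences could be set against a spread between replicates, and no p-value was computed.

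N6-methyladenosine (m6A) is a methyl mark that a nuclear complex built on METTL3 and METTL14 writes on adenosines of mRNA, most often within the sequence context DRACH, of which GGAC is a frequent core. FTO and ALKBH5 can remove it, and reader proteins of the YTH and IGF2BP families bind marked transcripts and affect their decay, export or translation. In mouse pluripotent cells the mark is found on many pluripotency transcripts, and in mouse brain development it takes part in the timing of neurogenesis. In m6A-seq, fragmented mRNA, here of about 100 nt, is pulled down with an antibody against the mark. The authors' table then gives a yes or no call for 5 regions of each transcript, and these are the 5' UTR, the CDS, the 3' UTR and the regions headed TcSS and TsTS. The last pair is not spelled out in the headers and is kept as written; TcSS stands before the 5' UTR in the column order and TsTS between CDS and 3' UTR.

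The libraries were not on one scale. The authors' FPKM values summed to 394600 in iPSC and 516215 in NSC, genes listed at exactly 0 numbered 178 and 1110, and the median difference of all genes, log2(FPKM + 1) in iPSC minus NSC, was -0.43. Differences below are on that scale unless called scaled, which means after both libraries were put on a common median ratio. The libraries' read depths are unknown. Since a 0 may also come from an estimate that failed, or from reads credited to a sister transcript, genes at 0 are called listed at 0 and get no fold. In bulk cultures, fewer cells of a type and less RNA per cell cannot be told apart.

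Checked against defining markers, the iPSC library held its label and the NSC library held it in part. Tdgf1 (NM_011562), which encodes the Nodal co-receptor Cripto of pluripotent cells, stood at 439 FPKM in iPSC and was listed at 0 in NSC. Neurod1 (NM_010894), a proneural transcription factor, stood at 0.703 FPKM in iPSC and 125 in NSC. Klf4 (NM_010637), one of the classical reprogramming factors, stood at 62.1 FPKM in iPSC and 303 in NSC. Klf4 therefore did not mark the iPSC side in these libraries. Of the neural stem cell markers, Nes (nestin) stood at 1.96 FPKM in iPSC and 9.10 in NSC, Pax6 at 0.258 and 7.46, and Vim (vimentin) at 75.5 and 708. Other defining markers of fetal neural stem cells were missing from the NSC library: Sox1, Sox3, Tnc and Olig1 were listed at 0 there, Fabp7 stood at 0.380 FPKM and Sox9 at 0.966. Sox2, shared by pluripotent and neural stem cells, stood at 119 FPKM in iPSC and 14.3 in NSC.

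Expression was compared over the 12280 genes. At 2-fold or more, 1753 genes (14.3%) were higher in iPSC and 3801 (31%) were higher in NSC. After scaling, the counts were 2576 (21%) and 2662 (21.7%), so that the iPSC-high share of the differences moved from 31.6% to 49.2%, and the balance between the directions moved with the scaling. At 8-fold or more, 291 genes were higher in iPSC and 425 in NSC. Of the iPSC-high genes 1015 stood under 1 FPKM in NSC, and of the NSC-high genes 1298 stood under 1 FPKM in iPSC. Across the 11876 genes above 0 in both libraries, the Pearson correlation of the log2 levels was 0.728. This describes genes of the same 2 libraries, which are not independent replicates.

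**Figure D1:**
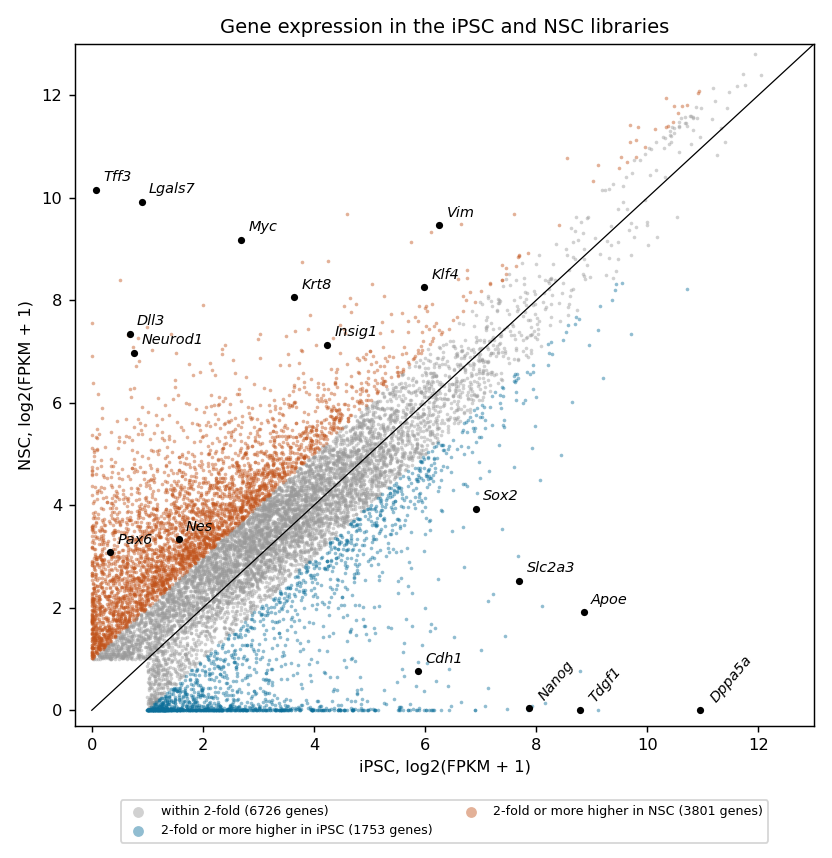
Each point is 1 of the 12280 genes at 1 FPKM or more in either library, with log2(FPKM + 1) in iPSC on the x axis and in NSC on the y axis; blue and orange points differ by 2-fold or more. Tff3 at 1138 FPKM in NSC and Dppa5a at 1986 FPKM in iPSC stand at opposite corners, and Klf4 and Myc lie on the NSC side of the diagonal.

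The pluripotency network made the widest difference. Of 34 core and naive pluripotency factors, 32 were at least 2-fold higher in iPSC and 1, Klf4, was higher in NSC, with a median difference of 4.50 against -0.43 for all genes. Pou5f1 (NM_013633), which encodes OCT4, stood at 554 FPKM in iPSC and was listed at 0 in NSC, with 0.0221 there when its transcripts were summed. Nanog (NM_028016) stood at 232 and 0.0296 FPKM, and Utf1, a chromatin factor of undifferentiated cells, at 241 and 0.0579. Dppa5a was the most abundant of the list, at 1986 FPKM in iPSC and listed at 0 in NSC. At the low end of the list, Trim28, a corepressor used in all cells, stood at 493 and 140 FPKM, and Tfcp2l1 at 8.11 and 0.972. In NSC, 16 of the 34 genes were listed at 0 and 8 reached 1 FPKM. The list summed to 5190 FPKM in iPSC and 485 in NSC, and Klf4 and Trim28 made up most of the NSC sum.

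Signals that maintain pluripotency were on both sides. Among Nodal and FGF genes, the ligand genes Nodal and Fgf4 stood at 44.9 and 66.3 FPKM in iPSC and were listed at 0 in NSC, and Lefty2, a Nodal antagonist, stood at 8.96 and 0.0119. Some receptor genes were not on that side: Acvr2a stood at 1.81 FPKM in iPSC and 6.86 in NSC, Acvr2b at 5.15 and 8.70, Acvr1b at 5.23 and 7.83, and Fgfr1 at 8.88 and 10.9. Among these receptor genes, Acvr2a alone was 2-fold apart, also after scaling (-1.15). The receptor gene Fgfr2 was on the iPSC side, at 2.10 and 6.9e-07 FPKM. Feedback inhibitors of FGF signalling were higher in iPSC, with Spry2 at 62.1 and 7.66 FPKM, Spry4 at 21.6 and 3.61, and Dusp6 at 27.2 and 6.25. In the LIF arm the receptor subunit gene Il6st stood at 8.50 FPKM in iPSC and 23.8 in NSC, the kinase gene Jak1 at 7.55 and 19, and the transcription factor gene Stat3 at 13.7 and 40.0. Of these 3, Stat3 alone was 2-fold apart after scaling (-1.06), while Il6st (-0.98) and Jak1 (-0.83) were not. Socs3, an induced inhibitor of that pathway, was on the iPSC side, at 41.5 and 11.2 FPKM. Over the 25 genes of the list, 14 were higher in iPSC and 5 in NSC.

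Genes of the 2-cell-stage-like state and of the germ line were present in iPSC and nearly absent from NSC. Of 18 germ cell genes, 17 were higher in iPSC by 2-fold or more and 0 in NSC (median 3.09). Tex19.1, which restrains retrotransposons in germ cells, stood at 118 FPKM and Stra8, a gene of meiotic entry, at 68.2, both listed at 0 in NSC. Dazl, encoding a germ cell RNA-binding protein, stood at 26.8 and 0.00812 FPKM, and the piRNA pathway gene Mael at 22.2 and 0. Of 14 2-cell-stage-like genes, 12 were higher in iPSC and 0 in NSC, led by Zscan4f at 68.4 FPKM and Zscan4c at 46.0, with both listed at 0 in NSC. Members of the Zscan4 family are near-identical copies, so reads may be split among them and their single values are uncertain.

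The NSC library was led by genes of several lineages. Notch pathway and proneural genes were higher in NSC in 20 of 26 tested, with a median of -1.89 (-1.68 after scaling, with 16 genes 2-fold apart). Neurog2, a proneural factor, stood at 0.0715 FPKM in iPSC and 44.0 in NSC. Dll3, a Notch ligand that acts within the cell, stood at 0.605 and 162 FPKM. The Notch modifier Mfng stood at 3.45 and 70.1, the receptor gene Notch1 at 4.12 and 33.9, and the receptor-cleaving protease gene Adam10 at 5.25 and 76.4. The ligand gene Dll3 and the receptor gene Notch1 were thus on the NSC side together. Among Notch target genes, Hes5 stood at 0.0982 and 5.01 FPKM, and Hes1 lay closer, at 10.8 and 29.7. Hey1 and Hey2 were under 1 FPKM in both libraries, at 0.713 and 0.122 and at 0.281 and 0.119. Rbpj, the DNA-binding partner of Notch, was listed on the iPSC side at 56.0 and 0.393 FPKM, but its transcripts summed to 62.8 and 35.6, which is under 2-fold.

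Of 23 neural stem cell markers tested, 17 were higher in NSC and 5 in iPSC, with a median of -2.04. The N-cadherin gene Cdh2 stood at 0.661 FPKM in iPSC and 37.5 in NSC, Prom1 at 0.342 and 12.1, and Msi2 at 4.07 and 33.3. The 5 on the iPSC side were Sox2, Olig1, Olig2, Sox3 and Tnc. The neuroendocrine and photoreceptor list had 7 of 10 genes higher in NSC, among them Insm1 (0.945 and 46.6 FPKM), Ret (0.278 and 28.8) and Cpe (4.85 and 113), and 3 higher in iPSC. Pomc, which encodes a pituitary prohormone, stood at 1.13 and 129 FPKM. Neuron markers were mixed, with 8 of 18 higher in NSC and 3 in iPSC, and so were astrocyte and oligodendrocyte markers, with 5 and 4 of 13, or 3 and 4 after scaling.

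Some of the highest NSC levels belonged to genes outside the neural lists. Tff3, a secreted trefoil peptide of mucosal epithelium, stood at 0.0597 FPKM in iPSC and 1138 in NSC, and Lgals7, a galectin of stratified epithelium, at 0.863 and 968. The surface antigen gene Ly6a stood at 0.428 and 335 FPKM, Krt8, encoding a simple-epithelium keratin, at 11.5 and 265, and Krt19 at 1.81 and 19.2. The partner keratin gene Krt18 was on the other side, at 14.9 FPKM in iPSC and 0.0116 in NSC. The wider epithelial and trophoblast list was on the iPSC side, with 15 of 20 genes higher in iPSC and 3 (Tff3, Krt8 and Krt19) higher in NSC. Epcam stood at 85.2 and 0.755 FPKM and the E-cadherin gene Cdh1 at 57.5 and 0.695. Blood, microglia and endothelial markers gave 5 genes higher in iPSC and 4 in NSC of 9 tested, with Cd34 at 23.2 FPKM in NSC and microglial Csf1r, C1qa and Trem2 listed at 0 there. The summed level of that list was 72.0 FPKM in iPSC and 198 in NSC, and that of the neural crest list 24.3 and 61.7. Both libraries thus held markers of more than 1 list, and the part of other cells in the differences was not tested.

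The cadherin genes crossed over. Cdh1 and Cdh2 stood at 57.5 and 0.661 FPKM in iPSC and at 0.695 and 37.5 in NSC, so each library held 1 of them. The transcription factor genes that repress Cdh1 were on the NSC side, with Zeb1 at 1.74 and 17.1 FPKM, Zeb2 at 0.173 and 4.71, Twist1 at 1.55 and 34.1 and Snai1 at 2.25 and 7.81. Fn1 (fibronectin), usually high in mesenchymal cells, was instead higher in iPSC, at 60.4 and 1.4 FPKM. Over the whole list of 18 genes, 10 were higher in iPSC and 7 in NSC.

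Myc stood out among the reprogramming factors. Its represented transcript (NM_001177354) was at 5.43 FPKM in iPSC and 579 in NSC, and its transcripts summed to 18.3 and 600. The paralog Mycn was on the opposite side, at 27.4 and 0.571 FPKM. The antagonists of the network followed Myc, with Mxd4 at 2.11 and 43.1 FPKM, Mxd1 at 0.766 and 13.8, and Mxd3 at 6.31 and 25.3. Across 12 network genes, 8 were higher in NSC and 1, Mycn, in iPSC.

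Cell cycle genes were found on both sides. Of 41 cyclins and replication genes, 14 were at least 2-fold higher in iPSC and 5 in NSC, with a median of 0.64 (1.04 after scaling, with 23 genes 2-fold higher in iPSC), and 22 were within 2-fold. The cyclin E gene Ccne1 stood at 103 FPKM in iPSC and 5.95 in NSC. The D-type cyclin genes were split. Ccnd3 was on the iPSC side, at 128 and 39.1 FPKM. Ccnd1 and Ccnd2 were on the NSC side, at 18.9 and 100.4 FPKM and at 0.597 and 39.2. Cdk6, a kinase partner of D-type cyclins, was on the NSC side too, at 2.31 and 15.1, as was E2f2 at 1.64 and 11.4. Among cyclin-dependent kinase inhibitors and p53 targets, 13 of 24 were higher in NSC and 6 in iPSC (median -1.07), or 9 and 8 after scaling. Cdkn1a, encoding p21, stood at 22.3 and 234 FPKM, Cdkn1b, encoding p27, at 4.27 and 47.5, and Cdkn2c, encoding p18, at 0.322 and 17.4. Cdkn2a, the Ink4a/Arf locus, was on the iPSC side at 7.89 and 2.62 FPKM for its represented transcript. Its transcripts summed to 9.29 and 5.27, which is under 2-fold.

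Sterol synthesis genes were mostly higher in NSC. All 22 cholesterol synthesis and uptake genes reached 1 FPKM in both libraries, 19 were higher in NSC by 2-fold or more and 0 in iPSC, with a median of -1.43 (-1.02 after scaling, with 13 genes still 2-fold apart). Insig1, a sensor of sterol level, stood at 17.9 FPKM in iPSC and 139 in NSC. The synthesis enzyme genes Hmgcs1 and Dhcr7 stood at 15.9 and 78.4 and at 9.47 and 58.8, and the master regulator gene Srebf2 at 29.6 and 83.8. Annexin and S100 calcium-binding genes were another such list, with 14 of 16 higher in NSC and 1 in iPSC, or 11 and 1 after scaling. Anxa2 stood at 18 and 433 FPKM and S100a10, its binding partner, at 67.8 and 646.

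Most oxidative phosphorylation and ribosomal protein genes stayed within 2-fold, and so did 6726 of all 12280 genes. Of the 22 glycolysis genes, 9 did. Of 82 oxidative phosphorylation genes, 7 (8.54%) were higher in iPSC and 10 (12.2%) in NSC, against 14.3% and 31% of all genes. Their median was -0.14 and became 0.29 after scaling. After scaling, 11 were higher in iPSC and 3 in NSC. Of 84 cytosolic ribosomal protein genes, 6 were higher in iPSC and 21 in NSC, against 14.3% and 31% of all genes, with a median of -0.83 against -0.43. After scaling, the median was -0.40 and the counts were 7 and 4. Of 78 mitochondrial ribosomal protein genes, 4 (5.13%) were higher in each library, below the shares of all genes. After scaling, 19 were higher in iPSC and 1 in NSC. Many ribosomal protein genes have near-identical processed copies, so their values are uncertain. The glucose transporter genes Slc2a3 and Slc2a1 were on the iPSC side, at 206 and 4.77 FPKM and at 127 and 22.3, while of 22 glycolysis enzymes and transporters in all 4 were higher in iPSC and 9 in NSC, or 6 and 5 after scaling. Apoe, the apolipoprotein gene, stood at 463 and 2.76 FPKM.

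**Figure D2:**
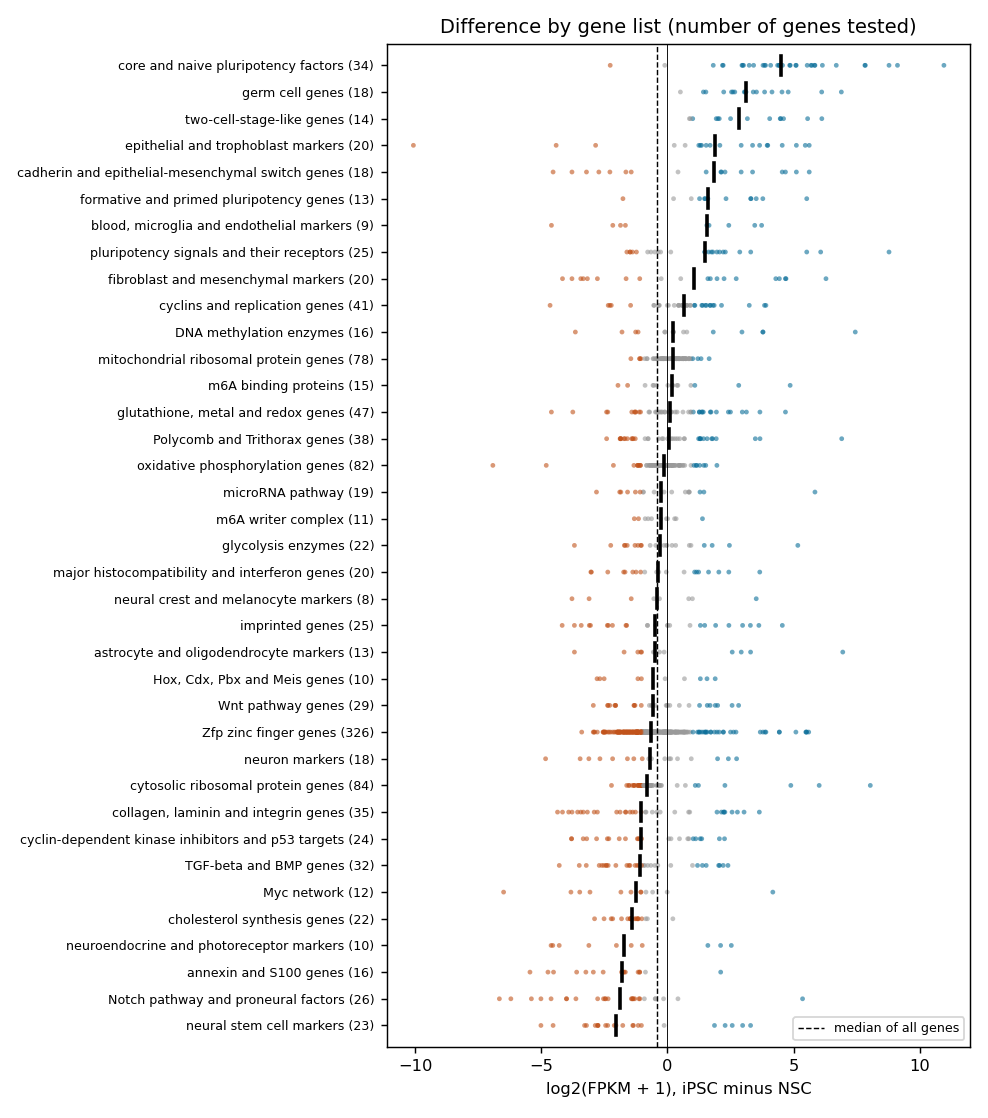
Each point is 1 gene of a list, placed by its difference in log2(FPKM + 1), iPSC minus NSC; blue and orange mark 2-fold or more, black bars are list medians and the dashed line is the median of all genes at -0.43. Lists of at least 8 tested genes are drawn; pluripotency factors stand highest at a median of 4.50 and neural stem cell markers lowest at -2.04.

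Epigenetic regulators were on both sides. Of 16 DNA methylation genes, 7 were within 2-fold. In iPSC 5 (31.25%) were higher and in NSC 4 (25%), against 14.3% and 31% of all genes. Among the 16 genes, Dnmt3l, a cofactor of de novo methylation, stood at 177 FPKM in iPSC and 0.0235 in NSC. Dnmt3b stood at 25.7 and 0.946. The maintenance enzyme gene Dnmt1 lay close, at 17.5 and 18.8, and so did the de novo enzyme gene Dnmt3a, at 11.4 and 9.54. For the TET dioxygenases, Tet1 stood at 14.4 FPKM in iPSC and 0.996 in NSC, Tet3 at 0.477 and 17.6, and Tet2 at 7.41 and 8.07. Of 38 Polycomb and Trithorax genes, 12 (31.6%) were higher in each library, against 14.3% in iPSC and 31% in NSC over all genes. Their median was 0.08 against -0.43 for all genes, and after scaling 14 were higher in iPSC and 10 in NSC. Within the Polyhomeotic subunits, Phc1 stood at 74.3 and 4.93 FPKM and Phc2 at 8.64 and 50.3.

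The m6A machinery was expressed in both libraries. Among the writers, Mettl3, the catalytic subunit, stood at 12.1 FPKM in iPSC and 12 in NSC, its partner Mettl14 at 10.8 and 11.1, and the adaptor Wtap at 26.3 and 20.5. Of 11 genes on the writer list, 1 was 2-fold higher in iPSC (Mettl16, a separate methyltransferase, 18.7 and 6.53). On the NSC side were 2 of the list, Pcif1, the cap methyltransferase (7.03 and 19), and Zfp217 (4.42 and 11). After scaling, the 2 on the NSC side were under 2-fold. The demethylases Fto and Alkbh5 stood at 11.1 and 11.3 FPKM in iPSC and at 26.3 and 27.6 in NSC, which is 2-fold as deposited and under 2-fold after scaling (-0.77 and -0.81). Among binders, the IGF2BP readers differed most, with Igf2bp1 at 28.1 FPKM in iPSC and listed at 0 in NSC, Igf2bp3 at 7.94 and 0.263, and Igf2bp2 at 7.97 and 3.72. Of the YTH readers, Ythdf1 stood at 55.4 and 25.6 FPKM, Ythdf2 at 23 and 17.5, and the nuclear Ythdc1 at 20.1 and 19.9. Lin28a, an RNA-binding protein that blocks let-7 maturation, stood at 56.8 and 0.00606 FPKM.

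More transcripts carried an m6A call in iPSC than in NSC. Over the 10924 rows at 1 FPKM or more in both, 7691 (70.4%, exact Clopper-Pearson 95% interval 69.5 to 71.3) were called in at least 1 region in iPSC and 6518 (59.7%, 58.7 to 60.6) in NSC. The intervals cover counting over rows only. In 5950 rows a call was present in both, in 1741 (15.9%) in iPSC alone and in 568 (5.2%) in NSC alone. NSC calls were thus largely contained in the iPSC calls, since 91.3% of called NSC rows were called in iPSC and 77.4% of called iPSC rows were called in NSC. Counted by gene, 1500 of 9322 genes (16.1%) were called in iPSC alone and 506 (5.43%) in NSC alone. Calls are yes or no and carry no height, so degree of methylation was not analysed here.

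The excess of iPSC calls was widest in TsTS and the 3' UTR. In TsTS, 1864 rows (17.1%) were called in iPSC alone and 648 (5.93%) in NSC alone. In the 3' UTR the counts were 1279 (11.7%) and 561 (5.14%), and in the CDS 1207 (11%) and 968 (8.86%). The upstream regions were even: TcSS was called in iPSC alone in 629 rows (5.76%) and in NSC alone in 604 (5.53%), and the 5' UTR in 176 (1.61%) and 186 (1.7%). Of the 1864 rows with a TsTS call in iPSC alone, 1048 had no NSC call in any region and 642 had an NSC call in the CDS. Among rows called in both libraries, 2848 (47.9%) carried the same set of regions. In 1551 of the rest the iPSC set included the NSC set, in 1315 the reverse held, and in 102 the sets shared no region.

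**Figure D3:**
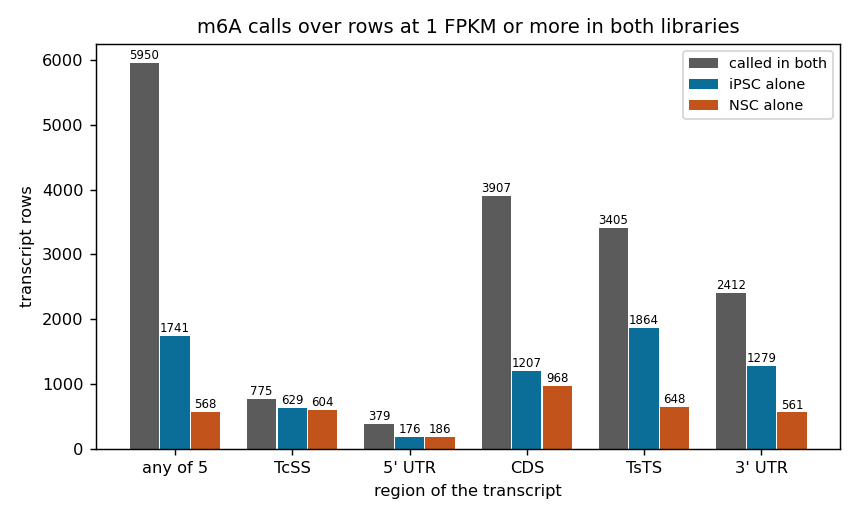
Bars count transcript rows at 1 FPKM or more in both libraries by region, called in both (grey), in iPSC alone (blue) or in NSC alone (orange). TsTS shows 1864 rows in iPSC alone against 648 in NSC alone, while TcSS and 5' UTR are nearly even.

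The sequences below show the last 30 coding bases of 6 transcripts, chosen because these hold the GGAC core near the stop codon and their TsTS calls differ or agree. The stop codon was used because TsTS stands between CDS and 3' UTR in the columns; that TsTS is this place is not stated in the headers. They are GENCODE M21 coding sequences (build GRCm38), written 5′ to 3′ on the transcript strand, with GGAC in capitals and the stop codon as the last 3 bases. Epas1 (chromosome 17, + strand), Dedd2 (7, -), Rpl13a (7, -) and Zfp395 (14, +) were called in TsTS in iPSC and not in NSC. Ccnd1 (7, -) was called there in both, and Mt1 (8, +) in NSC and not in iPSC.
Epas1: cttctcagagctctGGACcaggccacctga
Dedd2: ggagggcggcgtgGGACcgaggcctcctga
Rpl13a: gtcctcaagaccaacGGACtcctggtgtga
Zfp395: aagaaggcctgccagcgcttcctGGACtga
Ccnd1: cccaccgacgtgcgagatgtGGACatctga
Mt1: gccgcGGACaagtgcacgtgctgtgcctga

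The same core was present in every group of rows. GGAC was searched on the transcript strand in the last 30 coding bases of 10460 matched coding rows, and 1352 (12.9%) held it. It was present in 16.8% of the 3380 rows called in TsTS in both libraries (interval 15.5 to 18.1), in 13.2% of the 1844 called in iPSC alone (11.7 to 14.9), in 12.3% of the 642 called in NSC alone (9.86 to 15.1) and in 10.1% of the 4594 called in neither (9.20 to 11). The rows called in 1 library alone therefore lay between the other groups, and the intervals of these one-sided groups overlapped. A match is a string of letters in this window and not a mapped site.

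Transcripts called in 1 library alone were shorter than those called in both. Median transcript length was 3427 nt for coding rows called in both, 2667 for iPSC alone, 2172 for NSC alone and 1808 for neither. The calls of the other cell types on these rows differed too. Of the rows called in iPSC alone, 76.2% were also called in ESC and 65.0% in SC. Of the rows called in NSC alone, 42.3% were called in ESC and 41.2% in SC. Over all coding rows compared, 69.5% were called in ESC and 66.7% in SC. The iPSC-alone rows were thus above that share in ESC and near it in SC, and the NSC-alone rows were below it in both cell types.

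Among transcripts at like levels, the one-sided calls on the iPSC side included abundant housekeeping mRNAs. Rpl41, Rps9 and Rpl13a, cytosolic ribosomal protein genes at 3367, 1564 and 1361 FPKM in iPSC and 5442, 2993 and 2381 in NSC, were called in TsTS in iPSC and in no region in NSC. Hsp90ab1, encoding a chaperone, was called in the CDS in iPSC alone at 1281 and 1362 FPKM. Ptma (1138 and 1498) and the cytokine gene Mif (988 and 989) were called in TsTS in iPSC alone. These genes were named for being the highest in level among those called on 1 side.

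Some genes within 2-fold changed from calls in 4 or 5 regions to none. Fam43a and the integrin gene Itga3 were called in all 5 regions in iPSC and in none in NSC, at 7.34 and 10.5 FPKM and at 11.7 and 6.08. Epas1, which encodes the hypoxia factor HIF-2α, stood at 11 and 11.8 FPKM with 4 regions called in iPSC, and Ulk1, a kinase that starts autophagy, at 37.2 and 22.8 with 4. In the other direction, Emc10, of the endoplasmic reticulum membrane complex, had 4 regions called in NSC and none in iPSC at 34.4 and 58.3 FPKM. Acadl, a mitochondrial acyl-CoA dehydrogenase, had 4 at 6.96 and 14.6, and Atf6b, a factor of the unfolded protein response, 4 at 11.5 and 14.4. Acadl had no call in ESC or SC, while Emc10 was called in TsTS in ESC and Atf6b in the CDS in both. Fam43a was called in all 5 regions in ESC and 3 in SC.

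Gene lists differed in the direction of their one-sided calls. Of 80 cytosolic ribosomal protein genes at 1 FPKM in both, 15 were called in iPSC and 1 in NSC, with 14 in iPSC alone and 0 in NSC alone, against 16.1% and 5.43% of all genes. Of these 14, 11 were called in TsTS, against 60.2% of all rows called in iPSC alone (1048 of 1741). With 14 genes, this is a difference of a few genes. Mitochondrial ribosomal protein genes gave 17 and 1 of 78, Zfp zinc finger genes 45 and 2 of 226, Polycomb and Trithorax genes 8 and 0 of 35, and imprinted genes 8 and 1 of 17. The shares called in iPSC alone were near the background for ribosomal protein genes and above it for imprinted genes. Zfp genes contain close paralogs, so reads and calls may be split among them.

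Oxidative phosphorylation went the other way. Of 78 such genes, 14 (17.95%) were called in iPSC and 27 (34.62%) in NSC, against 71.1% and 60.5% of all genes. They were thus called less often than all genes in both libraries. In iPSC alone 3 were called and in NSC alone 16, against 16.1% and 5.43% of all genes. Atp5b, Atp5a1, Atp5g3 and Atp5o, subunits of the ATP synthase, stood at 832, 462, 415 and 312 FPKM in iPSC and 723, 446, 445 and 274 in NSC. They were called in the CDS in NSC and in no region in iPSC. Cyc1 and Uqcrc1, of complex III, and Sdha, of complex II, were called in the CDS in NSC alone as well, at 195 and 93.7, 173 and 128, and 70.3 and 94.9 FPKM. Some other metabolic lists also had more NSC-alone than iPSC-alone calls, but by only a few genes each. Glycolysis enzymes had 2 in iPSC alone and 4 in NSC alone of 22. Glutathione, metal and redox genes had 5 and 8 of 39, and cholesterol genes 1 and 3 of 22. The iron store gene Fth1 was called in the CDS in NSC alone at 647 and 695 FPKM, and the metallothionein gene Mt1 in TsTS in NSC alone at 1029 and 541.

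**Figure D4:**
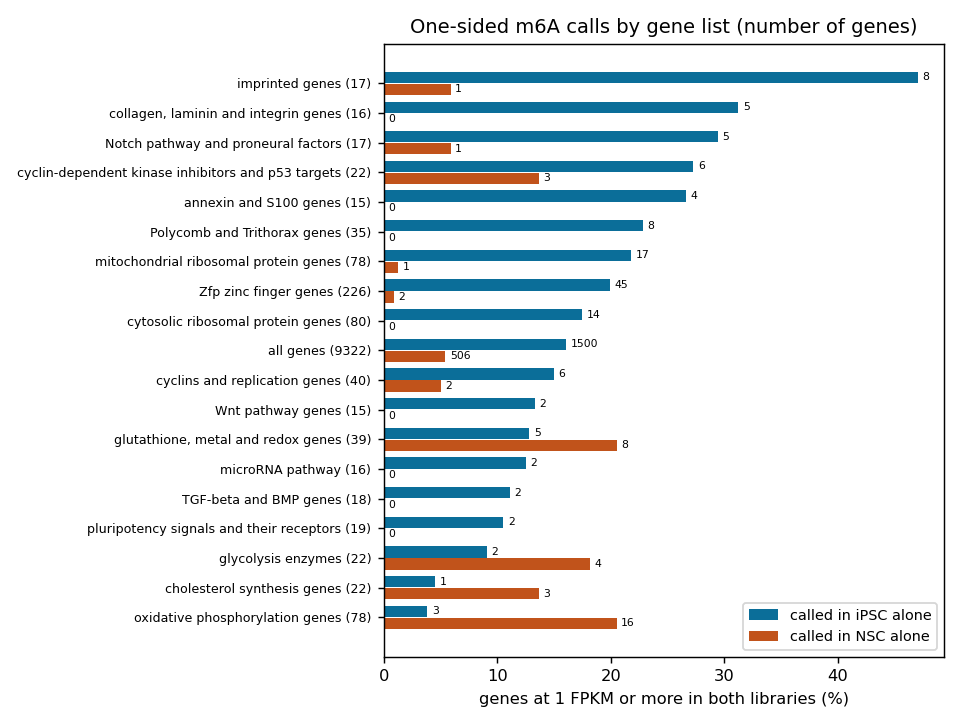
Bars give the percent of a list's genes, at 1 FPKM or more in both libraries, that were called in iPSC alone (blue) or in NSC alone (orange), with the gene count at each bar, for lists of at least 15 such genes. Oxidative phosphorylation shows 16 genes in NSC alone against 3 in iPSC alone, and cytosolic ribosomal protein genes 0 against 14.

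Calls in NSC were sparse on transcripts that were far higher in NSC. Of 753 coding rows higher in NSC by 4-fold or more, 71.6% (68.2 to 74.8) were called in iPSC and 48.7% (45.1 to 52.4) in NSC. In ESC and SC, 66.3% and 71.1% of the same rows were called. Over the 6981 coding rows within 2-fold, the shares were 72.8% in iPSC and 63.2% in NSC, and over the 167 rows at least 4-fold higher in iPSC they were 70.1% (62.5 to 76.9) and 55.7% (47.8 to 63.4). At 16-fold or more toward NSC on the log2(FPKM + 1) scale, 57.1% of 42 rows were called in iPSC and 28.6% in NSC. Transcripts that were far higher in NSC thus carried a call there less often than in the library where they were low.

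The CDS, TsTS and 3' UTR shared this gap in the 753 rows. TsTS was called in 49.7% in iPSC and 30.9% in NSC, the CDS in 50.6% and 37.8%, and the 3' UTR in 37.5% and 28.4%. TcSS was even, at 10.5% and 11%. Among rows at 4 FPKM or more in both libraries, the NSC-high shares were 65.4% in iPSC and 39.0% in NSC over 254 rows. Level moved with the calls: among coding rows at 256 FPKM or more in the library itself, 28.3% were called in iPSC and 22.6% in NSC, against 75.8% and 66.4% at 4 to 16 FPKM. The same top level had 56.5% called in ESC and 56.4% in SC. The part of level in the difference was not tested.

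**Figure D5:**
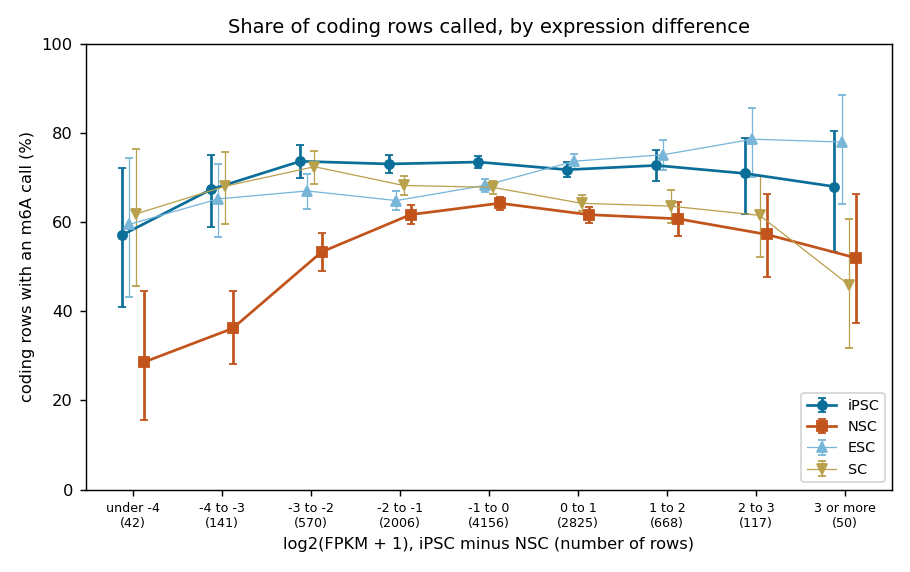
Points give the percent of coding rows with an m6A call in each cell type, with exact 95% intervals, by the difference in log2(FPKM + 1), iPSC minus NSC, over rows at 1 FPKM or more in both; the number of rows stands under each bin. In the most NSC-high bin (42 rows) the shares are 28.6% in NSC and 57.1% to 61.9% in iPSC, ESC and SC; the iPSC share is lower there too than its 73.7% in the bin from -3 to -2.

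By gene, 179 genes at least 4-fold higher in NSC were called in iPSC alone and 28 in NSC alone, of 688 coding genes at 1 FPKM in both. These are 26% and 4.07%, against 16.1% and 5.43% of all genes, so the NSC-alone share was near the background. The most abundant in NSC of the 179 were S100a10 (67.8 and 646 FPKM), Myc (5.43 and 579), Anxa2 (18 and 433), Krt8 (11.5 and 265), the collagen chaperone gene Serpinh1 (24.2 and 262) and Cdkn1a (22.3 and 234). Myc carried calls in the 5' UTR, CDS and TsTS in iPSC and SC and in the CDS and TsTS in ESC, and none in NSC. Cdkn1a carried 3 calls each in iPSC, ESC and SC, the CDS and TsTS among them, and none in NSC. For genes at least 4-fold higher in iPSC, the counts were 32 in iPSC alone (22.1%) and 10 in NSC alone (6.90%) of 145.

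Single genes of the Notch and imprinted lists had calls in iPSC alone while higher in NSC. Of 17 Notch pathway and proneural genes at 1 FPKM in both, 5 (29.4%) were called in iPSC alone and 1 (5.88%) in NSC alone, against 16.1% and 5.43% of all genes. With 17 genes, this is a difference of a few genes. Hes6, a proneural cofactor, was called in the CDS and 3' UTR in iPSC at 4.95 FPKM and not in NSC at 94.5, Mfng in the 3' UTR in iPSC at 3.45 and not in NSC at 70.1, and the ligand gene Jag2 in the CDS and TsTS at 2.98 and not at 22.1. Among imprinted genes, Peg3, a paternally expressed zinc finger gene, was called in 4 regions in iPSC at 10.6 FPKM and in none in NSC at 123. The imprinted growth regulators Igf2r (12.2 and 109 FPKM), Grb10 (8.59 and 42.4) and Cdkn1c (5.33 and 32) were also called in iPSC alone. Airn overlaps Igf2r on the opposite strand, and no source used here says that reads were assigned by strand, so their reads cannot be told apart.

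Neural stem cell markers were called in NSC about as often as in iPSC. Of 9 such genes at 1 FPKM in both libraries, 8 were called in iPSC and 9 in NSC, against 71.1% and 60.5% of all genes. The counts differ by 1 gene, called in NSC alone, and the list is small. Nes was called in 3 regions in iPSC and 4 in NSC, Notch1 in the CDS and 3' UTR in both, and Vim in the CDS in both. Sox2, at 119 and 14.3 FPKM, was called in 4 regions in iPSC and in all 5 in NSC. Klf4 had 4 regions called in iPSC and the 3' UTR alone in NSC. Calls on lineage genes below 1 FPKM on the other side were left out, since loss of the transcript and loss of the mark cannot be told apart there.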

How the data were processed

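The deposited table holds 1 line per RefSeq transcript. Per the file headers, the authors gave 1 FPKM value per RNA-seq library. TopHat2 2.0.4, Cufflinks 2.0.2, CASAVA and build mm9 are named in the submitters' processing notes. The m6A values are the authors' deposited yes or no calls (1 or 0) for 5 regions per transcript; the peak caller was not given in the sources used here.

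Symbols came from RefSeq accessions through a GRCm38.p6 gene table (19446 rows) and GENCODE M21 (104); 226 rows had no match. Because the builds differ, no coordinates are given. Each gene was represented by the transcript whose iPSC and NSC mean FPKM was highest. Differences are log2(FPKM + 1), iPSC minus NSC, which understates low genes, among genes at 1 FPKM or more in either library. Calls were compared at 1 FPKM or more in both. Transcript lengths and GGAC counts covered 98.9% of coding rows. Depth is unknown, FPKM steps gave no counts, and intervals (exact, 95%) cover counting over rows only.

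Named genes were the 3 markers, the 15 widest differences each way at 10 FPKM or more, up to 6 genes listed at 0 each way, up to 4 per list each way at 5 FPKM or more, the m6A genes, and the 12 one-sided call genes highest in level or in regions each way within 2-fold; other genes were chosen after their values were seen. Members and the 40 lists were chosen with earlier results of these data known. Some list members are counted but not reported by name. The calculations were tested on simulated data. Python 3.11.15, numpy 2.4.6, pandas 2.3.3 and scipy 1.17.1 were used.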

Additional observations from a re-analysis of the deposited data

How the results depend on the processing

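The direction of each main count and share held under the alternatives run other than scaling. After scaling, the counts were nearly even, at 2662 NSC-high (21.7%) and 2576 iPSC-high (21%) genes. Scaling centres the median ratio by construction, so the median difference after it cannot show a direction. NSC-high genes outnumbered iPSC-high genes by 1911 to 823 with pseudocount 5, and 1080 genes were iPSC-high at 5 FPKM in either library. The median difference of all genes (-0.43) was -0.49 with pseudocount 0.1, -0.25 with pseudocount 5, -0.21 with no filter, -0.024 after scaling, -0.46 without genes listed at 0 and -0.39 for genes with 1 transcript. Of 40 list medians, 6 changed sign on scaling, 1 on summing transcripts and 0 with pseudocount 5. The share called in iPSC and NSC was 69.3% and 58.7% at 5 FPKM in both, 65.4% and 54.5% at 10 FPKM, 53% and 44.7% with no filter, 72.7% and 61.6% for coding rows, 68.7% and 58.3% without TcSS, and 46.6% and 39.1% when at least 2 regions were required. For rows within 2-fold the NSC share was 61.1%. Rows called in iPSC alone and in NSC alone numbered 980 and 317 at 5 FPKM, 636 and 206 at 10 FPKM, 3062 and 1416 with no filter, and 1046 and 377 within 2-fold. With at least 2 regions required, 1680 and 866 rows were called on 1 side alone. The cause of these moves was not tested. No paired analysis was possible because each group has 1 library. Without read depth, no detection limit can be given, and a missing call is not absence of the mark.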

Other observations

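Matrix and growth factor genes were on both sides. Of 35 collagen, laminin and integrin genes, 18 were higher in NSC by 2-fold or more and 9 in iPSC (median -1.05), against 31% and 14.3% of all genes. The laminin chain genes of early embryonic basement membrane were on the iPSC side, with Lama1 at 5.85 FPKM in iPSC and 0.00346 in NSC and Lamb1 at 18.6 and 0.569, whereas Lamb2 stood at 3.43 and 59.9. The integrin genes Itga7 and Itgb7 stood at 0.647 and 32.8 FPKM and at 5.12 and 71.3. Among 32 genes of TGF-beta and BMP signalling, 17 (53.1%) were higher in NSC and 7 (21.9%) in iPSC, against 31% and 14.3% of all genes. The ligand gene Tgfb3 stood at 0.290 and 24.2 FPKM and the receptor gene Tgfbr2 at 0.165 and 6.6, while Smad7, an inhibitor of the pathway, stood at 5.03 and 0.478. Of 29 Wnt pathway genes, 11 (37.9%) were higher in NSC and 7 (24.1%) in iPSC, against 31% and 14.3% of all genes. After scaling, the Wnt counts were 9 and 8. Dvl1, a signal transducer, stood at 7.11 and 61.2 FPKM, and Tcf7l1, a repressor of Wnt targets in pluripotent cells, at 12 and 0.848.

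Imprinted genes went both ways, with 10 of 25 (40%) higher in NSC and 8 (32%) in iPSC by 2-fold or more. Over all genes, these shares were 31% and 14.3%. Their median was -0.48 as deposited and 0.06 after scaling, so its sign moved with the scaling. Maternally expressed noncoding genes of the Dlk1-Dio3 region were on the iPSC side, with Rian at 25.9 FPKM in iPSC and 1.75 in NSC and Meg3 at 20.5 and 2.98. Peg10, a retrotransposon-derived placental gene, stood at 25.6 and 0.134. Calls were also listed where the FPKM was exactly 0, in 154 of 467 such coding rows in iPSC (33%) and 113 of 1367 in NSC (8.27%).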
